A study of Homo sapiens with 4 samples.

Results

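The cluster of miR-143 and miR-145 consists of the hairpins MIR143 and MIR145 and their 4 mature arms, hsa-miR-143-5p, hsa-miR-143-3p, hsa-miR-145-5p and hsa-miR-145-3p. The members were chosen by name from a table of 1644 miRNA names, and the difference in hsa-miR-145-5p reads between the libraries was part of the choice. The levels of that arm are therefore given as a description, with no test. Of the 4 arms, 3 had reads listed, spread over 45 isoforms that differ in their start or end. No isoform of hsa-miR-143-5p is listed, and it was not analysed here.

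Small RNA was sequenced from HCT116, a human colon carcinoma cell line, in 4 libraries, 1 for each transfection with pCDNA3 plasmids. The empty vector library came from cells given the plasmid with no insert. The wild-type library came from cells given plasmids that encode wild-type pri-miRNAs, the primary transcripts cut by the nuclease DROSHA. The mutant 1 and mutant 2 libraries came from cells given plasmids with pri-miRNAs altered in the mismatches or wobble pairs of the upper stem. In the study's methods, the 3 mixtures other than the empty vector also held pri-mir-16-1. Reads with a mutant sequence were nearly confined to the libraries labelled mutant: those of pri-mir-342 (midM_910) numbered 3, 4, 1 and 49213 in the empty vector, wild-type, mutant 1 and mutant 2 libraries, and all others numbered 38, 31, 581237 and 71096. The mutant 2 library did not match the study's list of mixtures, which names no other mutant beside pri-mir-342 (midM_910) where that plasmid is listed, since it held 65088 reads of a mutant pri-mir-128-1 and 5966 of a mutant let-7d. None of the plasmids encodes a member, and no cloned pri-miRNA shared more than 8 consecutive bases with a member on either strand. With 1 library per condition there is no replicate. Every interval below is a 95% interval and covers counting error only, not the spread between transfections.

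The cluster is best known from smooth muscle and other mesenchymal cells, where it is abundant and takes part in smooth muscle differentiation, and it is usually low in colon carcinoma cells. Both hairpins are carried by the long noncoding RNA CARMN. DROSHA releases the hairpin from the primary transcript, DICER removes the loop, and Argonaute keeps mostly a single strand of the remaining duplex. Bases 2 to 8 of that strand, the seed, pair with target mRNAs, so a shift of the 5′ end changes the seed whereas a shift of the 3′ end does not. The guide strands usually named for the cluster are hsa-miR-143-3p and hsa-miR-145-5p.

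In the human genome (build GRCh38), MIR143 lies at chr5:149428918-149429023 and MIR145 at chr5:149430646-149430733, both on the plus strand, with 1622 bases between them. The GENCODE annotation places both in CARMN (ENSG00000249669.12, chr5:149406689-149432835). All 3 CARMN transcripts that span the locus hold MIR143 in an exon and MIR145 in an intron. Each of the 4 mature sequences matched the main chromosomes exactly 1 time, so each has a single exact source in the genome. The mature sequences (RefSeq, GRCh38.p14) are shown because arm and seed carry the results that follow, with the seed in capitals.
hsa-miR-143-5p: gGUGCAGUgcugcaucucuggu
hsa-miR-143-3p: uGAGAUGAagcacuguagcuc
hsa-miR-145-5p: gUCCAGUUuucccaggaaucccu
hsa-miR-145-3p: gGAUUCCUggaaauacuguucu

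The 4 seeds differ from each other. Among the mature miRNAs of the RefSeq table, which is not complete, the seed of hsa-miR-143-3p recurs in hsa-miR-4770 and hsa-miR-6088, and neither of these is listed in the counts. The hairpins are shown to place the arms against each other, with the mature arms in capitals.
MIR143: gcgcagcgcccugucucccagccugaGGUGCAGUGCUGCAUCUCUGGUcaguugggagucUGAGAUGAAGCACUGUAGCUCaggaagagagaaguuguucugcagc
MIR145: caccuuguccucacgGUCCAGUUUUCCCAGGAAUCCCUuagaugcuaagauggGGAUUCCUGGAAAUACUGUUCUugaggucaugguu

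The minimum free energy fold was -51.8 kcal/mol with 38 base pairs for the 106 nt of MIR143 and -41.1 kcal/mol with 30 base pairs for the 88 nt of MIR145. The study concerned mismatches and wobble pairs in the first 13 positions above the DROSHA cut. Counted from the 5p start as position 1, the MIR145 fold left positions 2, 3, 8 and 11 unpaired. The MIR143 fold left positions 2 and 12 unpaired and had a wobble pair at position 4. These are predicted structures and were not measured here.

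The libraries held 14544516 to 19834361 miRNA reads. Levels were scaled to untransfected miRNAs, the 1608 names encoded by none of the cloned pri-miRNAs, which held 12241852 to 15134221 reads. A level below is reads per 1000000 reads of untransfected miRNAs. The cells carried the epithelial miRNAs of colon: all 9 of the intestinal epithelial list were listed, at a summed level of 25957 to 29271, led by hsa-miR-141-3p at 10014 to 12683. Of the muscle and mesenchymal list, 6 of 11 were listed, at a summed level of 17.9 to 19.7, of which hsa-miR-199b-5p alone made up 17.4 to 19.1. In that list hsa-miR-1-3p, hsa-miR-133a-3p, hsa-miR-206, hsa-miR-199a-5p and hsa-miR-490-3p were not listed. All 6 of the blood and endothelial list were listed, at a summed level of 252 to 300, led by hsa-miR-126-3p at 238 to 286. The liver miRNA hsa-miR-122-5p stood at 0.570 to 1.23. In bulk RNA, a larger share of cells with an miRNA and more of it per cell cannot be told apart.

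hsa-miR-143-3p, the guide strand of MIR143, had 3061 reads in the empty vector library, 2278 in the wild-type, 1758 in the mutant 1 and 2476 in the mutant 2 library. Its levels were 229 (interval 221 to 237), 186 (179 to 194), 125 (120 to 131) and 164 (157 to 170) in that order. The empty vector library was the highest and mutant 1 the lowest, and no 2 of the 4 intervals overlapped. The arm ranked between 120 of 1315 and 142 of 1333 untransfected miRNAs with reads, against a median level of 1.07 to 1.27 over those miRNAs.

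hsa-miR-145-5p, the guide strand of MIR145, had 1214 reads in the empty vector library, 2208 in the wild-type, 4715 in the mutant 1 and 3204 in the mutant 2 library. Its levels were 90.7 (85.7 to 96.0), 180 (173 to 188), 336 (327 to 346) and 212 (204 to 219). On this scale the order of the libraries was the reverse of that for hsa-miR-143-3p, with the empty vector library lowest and mutant 1 highest. The order depends on the scaling: per 1000 reads of miR-16-5p, hsa-miR-145-5p had 5.35, 5.19, 9.57 and 5.09 reads, with mutant 2 lowest, and with all miRNA reads hsa-miR-143-3p was higher in mutant 2 than in the wild-type library, at a ratio of 1.10. Its rank moved from 162 of 1315 in the empty vector library to 105 of 1333 in mutant 1.

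hsa-miR-145-3p, the other arm of the same hairpin, had 380, 291, 249 and 273 reads in the empty vector, wild-type, mutant 1 and mutant 2 libraries. Its levels were 28.4 (25.6 to 31.4), 23.8 (21.1 to 26.7), 17.8 (15.6 to 20.1) and 18 (16 to 20.3). The empty vector library was again the highest, the intervals of empty vector and wild-type overlapped, and those of both mutant libraries were nearly the same. The arms of MIR145 thus stood in opposite order between the empty vector and mutant 1 libraries.

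**Figure D1:**
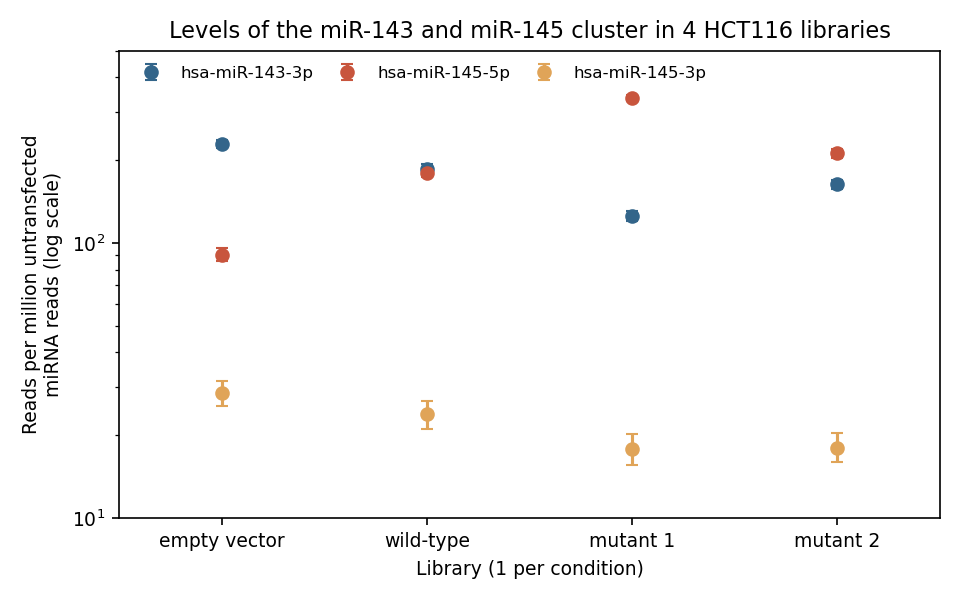
Level of each listed arm in the 4 libraries, in reads per 1000000 reads of untransfected miRNAs on a log axis, with 1 point per library and bars for 95% exact intervals of counting error. hsa-miR-145-5p goes from 90.7 in the empty vector library to 336 in mutant 1, while hsa-miR-143-3p goes from 229 to 125 and hsa-miR-145-3p from 28.4 to 17.8.

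Against the empty vector library, the level of hsa-miR-145-5p was 1.99-fold in the wild-type library (interval 1.85 to 2.13), 3.70-fold in mutant 1 (3.48 to 3.95) and 2.33-fold in mutant 2 (2.18 to 2.49). These 3 ratios share the empty vector library. Mutant 1 stood at 1.86-fold of the wild-type library (1.77 to 1.96), mutant 2 at 1.17-fold of the wild-type (1.11 to 1.24) and mutant 2 at 0.630-fold of mutant 1 (0.602 to 0.659). hsa-miR-143-3p stood at 0.813-fold (0.770 to 0.859), 0.548-fold (0.516 to 0.581) and 0.715-fold (0.678 to 0.754) of the empty vector in the wild-type, mutant 1 and mutant 2 libraries. hsa-miR-145-3p stood at 0.837-fold (0.716 to 0.978), 0.625-fold (0.531 to 0.735) and 0.635-fold (0.542 to 0.744). Between the mutant libraries, hsa-miR-145-3p had a ratio of 1.02 (0.853 to 1.21), which counting error alone could give.

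The direction of some ratios, and the size of others, depends on the scaling. Beside the turns of hsa-miR-145-5p given below, hsa-miR-143-3p in mutant 2 against wild-type went from 0.879 to 1.10 with all miRNA reads. The study scaled to miR-16-5p, which pri-mir-16-1 plasmids also make and which had 226727, 425441, 492739 and 628912 reads in the empty vector, wild-type, mutant 1 and mutant 2 libraries. Divided by these reads, hsa-miR-145-5p stood at 0.969-fold, 1.79-fold and 0.951-fold of the empty vector, so that the wild-type and mutant 2 ratios lay on the other side of 1. The ratio of mutant 2 to wild-type turned as well, to 0.982, whereas with all miRNA reads it was 1.47. The same division put hsa-miR-143-3p at 0.397-fold, 0.264-fold and 0.292-fold of the empty vector, and hsa-miR-145-3p at 0.408-fold, 0.302-fold and 0.259-fold. That division also moved the median log2 ratio of all untransfected miRNAs to -0.94, -1.12 and -1.25, against 0.09, -0.07 and 0.04 under the scaling used here. Measured from the median, which no scaling changes, the log2 ratio of hsa-miR-145-5p was 0.90, 1.96 and 1.18 in the wild-type, mutant 1 and mutant 2 libraries. The same quantity was -0.39, -0.80 and -0.53 for hsa-miR-143-3p and -0.35, -0.61 and -0.70 for hsa-miR-145-3p. Each arm thus lay on the same side of the median in all 3 comparisons.

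Past a 2-fold difference from the empty vector, in either direction, were 0 of the 3 listed members in the wild-type library, where 8.02% of 773 untransfected miRNAs were past it. In mutant 1, 1 of 3 was past it beside 11.3% of 786, and in mutant 2, 1 of 3 beside 7.17% of 781. Both times the member was hsa-miR-145-5p, whose difference was used in the choice, so nothing is read from these counts. They also depend on the scaling. With division by miR-16-5p reads, 2 of 3 were past it in each of the 3 libraries, hsa-miR-143-3p and hsa-miR-145-3p and not hsa-miR-145-5p. Of all untransfected miRNAs, 44.4%, 59.4% and 73.0% were past it under that division in the wild-type, mutant 1 and mutant 2 libraries. With all miRNA reads 3 of 3 were past it in mutant 1, beside 18.7% of 786. None of the 3 was past 2-fold between mutant 1 and wild-type, mutant 2 and wild-type, or mutant 2 and mutant 1, where the background was 9.34% of 771, 6.91% of 782 and 6.74% of 786. With TMM or the median of ratios, hsa-miR-145-5p was past it in mutant 1 against wild-type, at 2.03-fold and 2.11-fold, beside 8.69% and 8.56% of 771. In these 3 comparisons the median log2 ratio of all untransfected miRNAs was -0.16, -0.05 and 0.12. The background counts include miRNAs that average as few as 10 reads. With a mean of at least 200 reads, as every listed member had, 1 of 304 miRNAs was past 2-fold between the wild-type and empty vector libraries, 6 of 303 in mutant 1 and 3 of 310 in mutant 2.

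In the comparison of mutant 1 to the empty vector library, 5 of 786 untransfected miRNAs had a higher ratio than hsa-miR-145-5p. These were hsa-miR-6799-3p, hsa-miR-548ap-5p, hsa-miR-4730, hsa-miR-494-3p and hsa-miR-6737-3p, named after their values were seen, with 2 to 5 reads in the empty vector library and 19 to 26 in mutant 1. In the wild-type and mutant 2 libraries, 40 of 773 and 20 of 781 had a higher ratio. The SD of the log2 level over the 4 libraries was 0.78 for hsa-miR-145-5p, 0.36 for hsa-miR-143-3p and 0.33 for hsa-miR-145-3p, against a median of 0.21 over 475 untransfected miRNAs that averaged at least 50 reads. A larger SD than that of hsa-miR-145-5p was found for 2 of these, hsa-miR-574-5p and hsa-miR-3157-5p, also named after their values were seen. Since the difference in hsa-miR-145-5p reads was part of the choice, its ranks by ratio and by SD are a description with no test.

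**Figure D2:**
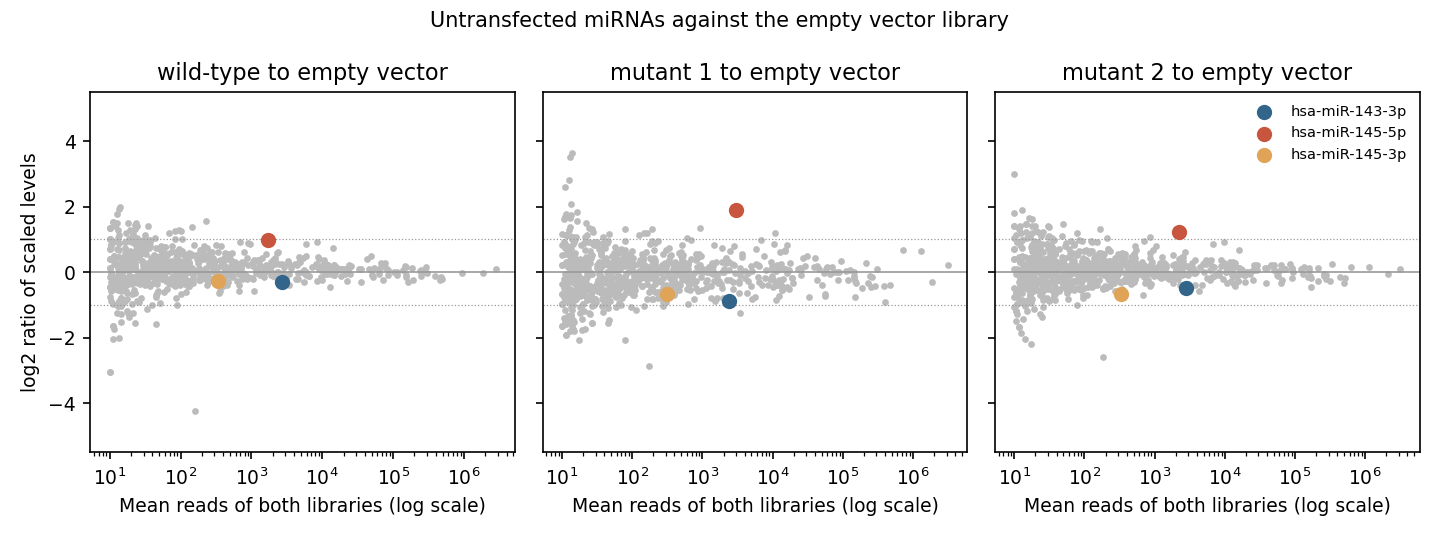
log2 ratio of scaled levels to the empty vector library against the mean reads of both libraries on a log axis, for each untransfected miRNA that averaged at least 10 reads and reads in both libraries (grey) and the 3 listed members (coloured), with dotted lines at 2-fold. At the depth of hsa-miR-145-5p few grey points lie outside the dotted lines, and its log2 ratio is 0.99, 1.89 and 1.22 in the 3 panels. The difference in hsa-miR-145-5p reads was part of the choice, so its place among the points is a description.

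The balance between the arms of MIR145 is a ratio within a library, so that no scaling enters it. The 5p arm held 1214 of 1594 reads in the empty vector library, or 76.2% (Wilson interval 74.0 to 78.2). It held 88.4% of 2499 in the wild-type library (87.0 to 89.6), 95% of 4964 in mutant 1 (94.3 to 95.6) and 92.1% of 3477 in mutant 2 (91.2 to 93.0). The 4 intervals did not overlap. There were 3.19, 7.59, 18.9 and 11.7 reads of the 5p arm for each read of the 3p arm in the same order. For MIR143 no such share can be given, since the table lists reads of the 3p arm alone.

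Against the empty vector, the ratio of 5p to 3p reads of MIR145 was 2.38-fold in the wild-type library (2.01 to 2.81), 5.93-fold in mutant 1 (4.99 to 7.04) and 3.67-fold in mutant 2 (3.10 to 4.35). The same ratio was taken for the 124 untransfected hairpins, MIR145 included, with a mean of at least 50 reads on each arm. It was past 2-fold in either direction for 7.26% of them in the wild-type library, 16.9% in mutant 1 and 6.45% in mutant 2. Some of these names had nearly mirrored log2 ratios, such as miR-338 at 0.736 and miR-3065 at -0.736 in the empty vector library. miR-486 had a log2 ratio of 0 in every library. The 124 names may therefore not all be separate measurements. A larger change than that of MIR145 was found for 3 hairpins in the wild-type library, miR-574, miR-629 and miR-3667, and for 1, miR-574, in mutant 1 and in mutant 2. These hairpins were named after their values were seen, and in each the 5p share was lower than in the empty vector library. Since the ratio contains hsa-miR-145-5p, these ranks are a description with no test.

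The 3 pri-miRNA libraries also differed from each other. The ratio of 5p to 3p reads of MIR145 in mutant 1 was 2.50-fold of the wild-type library (2.09 to 2.98), where 7.26% of the 124 hairpins were past 2-fold. In mutant 2 it was 1.55-fold of the wild-type (1.30 to 1.84), beside 0.806% past 2-fold, and 0.620-fold of mutant 1 (0.519 to 0.740), beside 2.42%. Neither mutant 2 ratio is itself past 2-fold, so these 2 shares are no measure of it. A larger change than that of MIR145, in either direction, was found for 3 of the 124 hairpins between mutant 1 and wild-type (miR-574, miR-3157 and miR-10b), for 2 between mutant 2 and wild-type (miR-574 and miR-32) and for 10 between mutant 2 and mutant 1. These hairpins too were named after their values were seen.

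**Figure D3:**
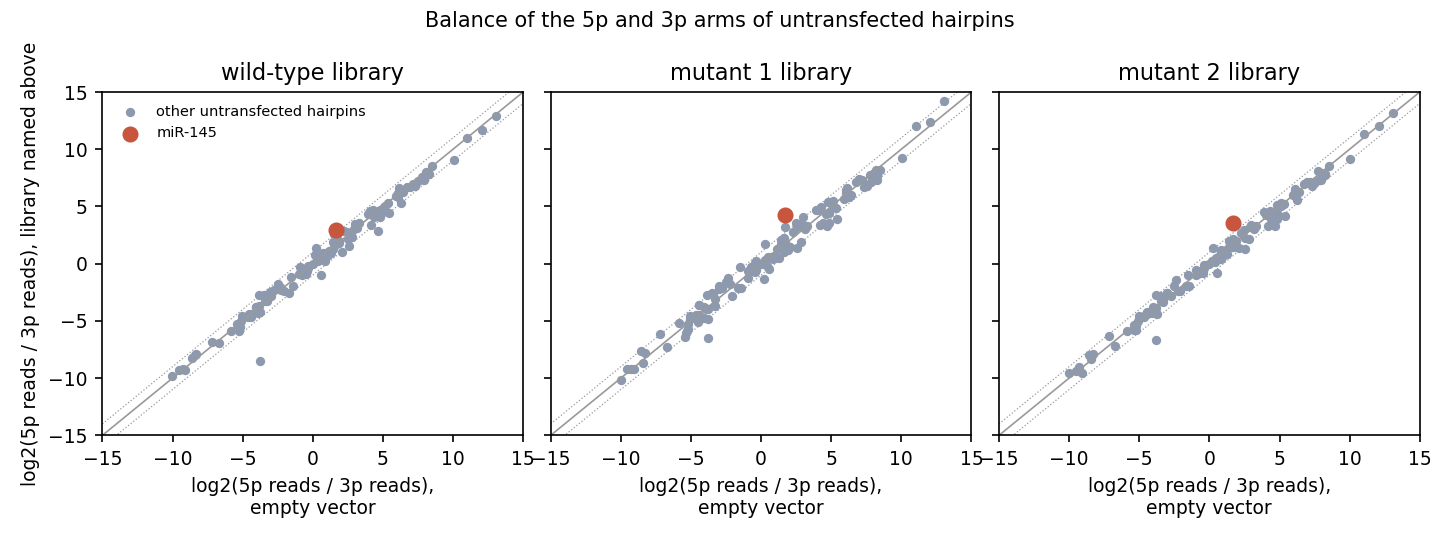
log2 ratio of 5p to 3p reads of each of 124 untransfected hairpins in the library named above each panel against the same ratio in the empty vector library, with the line of equality and dotted lines at 2-fold. MIR145 (red) lies above the line in every panel, at 1.68 in the empty vector library and at 2.92, 4.24 and 3.55 in the wild-type, mutant 1 and mutant 2 libraries.

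Against the empty vector library, the 3p arms of the 2 hairpins differed little in their proportion to each other. There were 8.06 reads of hsa-miR-143-3p for each read of hsa-miR-145-3p in the empty vector library (7.24 to 8.99), 7.83 in the wild-type library (6.93 to 8.87), 7.06 in mutant 1 (6.18 to 8.09) and 9.07 in mutant 2 (8.0 to 10.3). Each of these intervals overlapped that of the empty vector, whereas those of mutant 1 and mutant 2 overlapped only between 8.0 and 8.09. The proportion of the 2 guide strands differed more: the reads of hsa-miR-143-3p for each read of hsa-miR-145-5p numbered 2.52 (2.36 to 2.70), 1.03 (0.973 to 1.09), 0.373 (0.353 to 0.394) and 0.773 (0.733 to 0.815) in the same order. The guide of MIR143 was thus the more abundant in the empty vector library and the guide of MIR145 in both mutant libraries, and in the wild-type library the 2 did not differ beyond counting error.

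The similarity of pattern was measured as the root mean square difference of log2 levels over the 4 libraries, each miRNA centred on its own mean. For hsa-miR-145-5p the nearest of the 475 untransfected miRNAs were hsa-miR-1226-3p at 0.21, hsa-miR-29b-3p at 0.25 and hsa-miR-18a-5p at 0.27. Their levels ran from 37.7 to 95.2, from 7.10 to 16.3 and from 464 to 1075. Each was lowest in the empty vector library and highest in mutant 1, which largely follows from picking them by nearness. The difference from its own partner arm, hsa-miR-145-3p, was 0.94, and 436 miRNAs were nearer. For hsa-miR-143-3p the nearest were hsa-miR-483-5p at 0.04 and hsa-miR-381-3p and hsa-miR-92b-3p at 0.05 each. hsa-miR-145-3p differed from hsa-miR-143-3p by 0.13, with 30 miRNAs nearer. These distances rest on 4 libraries and describe likeness alone.

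The starts of both guides were sharp. Reads that began at the annotated base made up 99.5% to 99.6% of hsa-miR-143-3p and 99.3% to 99.5% of hsa-miR-145-5p over the 4 libraries, so that their seeds were those printed above. The median over untransfected miRNAs with at least 50 reads in a library was 95.3% to 95.8%.

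hsa-miR-145-3p began elsewhere. Reads that started 2 nt downstream of the annotated base numbered 368 of 380 in the empty vector library, or 96.8% (94.6 to 98.2). They were 280 of 291 in the wild-type library, or 96.2% (93.4 to 97.9), 227 of 249 in mutant 1, or 91.2% (87.0 to 94.1), and 247 of 273 in mutant 2, or 90.5% (86.4 to 93.4). A main start other than the annotated base occurred in 12% to 14.1% of untransfected miRNAs with at least 50 reads, and one 2 nt downstream in 7 to 10 of 468 to 492. The shift replaces the seed. The most frequent isoforms are printed with their own seed in capitals, below the annotated sequence.
hsa-miR-145-3p, annotated: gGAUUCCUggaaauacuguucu
start 2 nt downstream, end 1 nt downstream: aUUCCUGGaaauacuguucuu
start 2 nt downstream, annotated end: aUUCCUGGaaauacuguucu

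The first of these had 154, 136, 90 and 106 reads and the second 153, 112, 110 and 110 in the empty vector, wild-type, mutant 1 and mutant 2 libraries. In the fold of MIR145, the annotated 5p end lies 2 nt past the partner of the annotated 3p start, and 4 nt past the partner of a start 2 nt downstream. At the other end of the duplex, a 3p end 1 nt downstream of the annotated base lies 2 nt past the partner of the 5p start.

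Reads of hsa-miR-145-3p at the annotated start were few and differed between libraries. They numbered 1 of 380 in the empty vector library, or 0.263% (0.0465 to 1.48), and 3 of 291 in the wild-type library, or 1.03% (0.351 to 2.99). In mutant 1 they numbered 11 of 249, or 4.42% (2.48 to 7.74), and in mutant 2, 16 of 273, or 5.86% (3.64 to 9.31). The intervals of both mutant libraries lay above that of the empty vector. The level of these reads in mutant 1 and mutant 2 was 10.5-fold (1.53 to 452) and 14.1-fold (2.2 to 593) that in the empty vector library, where a single read was counted. Reads with the start 2 nt downstream stood at 0.832-fold (0.709 to 0.974), 0.588-fold (0.497 to 0.696) and 0.593-fold (0.503 to 0.699) of the empty vector in the wild-type, mutant 1 and mutant 2 libraries. The lower total of hsa-miR-145-3p thus came from the start that made up most of the arm.

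The 3′ ends were more varied. The most frequent isoform of hsa-miR-143-3p was 20 nt long and lacked the last base of the annotated sequence. It is shown beside the annotated isoform, with the seed in capitals.
hsa-miR-143-3p, 20 nt: uGAGAUGAagcacuguagcu
hsa-miR-143-3p, 21 nt: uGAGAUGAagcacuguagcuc

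Reads that ended 1 nt upstream of the annotated end made up 54.3% of hsa-miR-143-3p in the empty vector library (52.6 to 56.1), 55.9% in the wild-type library (53.9 to 58.0), 49.0% in mutant 1 (46.7 to 51.4) and 52.5% in mutant 2 (50.5 to 54.4). The mutant 1 interval lay below those of the empty vector and the wild-type library. Reads with the annotated end made up 36.4%, 34.9%, 41.4% and 38.2% in the same order. The 20 nt isoform stood at 0.493-fold of the empty vector in mutant 1 (0.454 to 0.536) and the 21 nt isoform at 0.624-fold (0.568 to 0.686). Over untransfected miRNAs with at least 50 reads, the main 3′ end was not the annotated base in 41.0% to 42.2%.

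hsa-miR-145-5p ended mostly at the annotated base, in 86.3% of reads in the empty vector library (84.3 to 88.1), 81.5% in the wild-type library (79.8 to 83.0), 82.0% in mutant 1 (80.9 to 83.1) and 82.0% in mutant 2 (80.6 to 83.3). Reads 1 nt shorter made up 8.32% (6.89 to 10), 11.4% (10.2 to 12.8), 12.3% (11.4 to 13.2) and 11.0% (9.95 to 12.1) in the same order. At the annotated end, the intervals of the 3 pri-miRNA libraries overlapped each other and lay below that of the empty vector. The difference in level was not carried by a single isoform. The 23 nt isoform with both annotated ends had 1043 reads in the empty vector library and 3852 in mutant 1, or 3.52-fold (3.29 to 3.78), the 22 nt isoform 100 and 578, or 5.51-fold (4.45 to 6.89), and the 24 nt isoform 45 and 174, or 3.69-fold (2.64 to 5.24).

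Reads of hsa-miR-145-3p were divided between the annotated 3′ end and the end 1 nt downstream. The annotated end held 41.6% (36.7 to 46.6), 39.9% (34.4 to 45.6), 47.4% (41.3 to 53.6) and 45.1% (39.3 to 51.0) of the arm in the empty vector, wild-type, mutant 1 and mutant 2 libraries. The end 1 nt downstream held 41.8% (37.0 to 46.9), 48.8% (43.1 to 54.5), 40.6% (34.7 to 46.8) and 40.7% (35 to 46.6). The intervals of the 4 libraries overlapped at both ends.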

How the data were processed

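The counts, as the authors deposited them without normalization, are reads for each isoform, meaning a miRNA with offsets of its ends from the annotated bases. The authors trimmed adapters with cutadapt, kept reads of 18 to 26 nt, filtered by quality, aligned to hg38 with Bowtie2 and kept unambiguous reads with mismatches at the 3p end only, by miRBase loci. A base added after cutting can therefore not be told from a genomic base at the 3′ end. Reads carry no molecular identifiers, so amplified copies of the same molecule are counted as separate reads. Intervals cover counting error of reads only and may be too narrow for molecules. A blank was taken as 0.

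The sign of the offsets was read from the lengths they imply. Of 10587 isoforms of 1411 miRNAs with a single locus, 0 fell outside 18 to 26 nt when a positive 5p offset means a later start and a positive 3p offset an earlier end, against 714 to 1611 under the 3 other readings.

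Levels are reads per 1000000 reads of miRNAs that no deposited plasmid sequence encodes. Names in the plasmid annotation and both arms of each cloned hairpin were left out of that total, as were reads with a mutant sequence. Ratios have exact conditional (Clopper-Pearson) intervals, levels exact binomial intervals, shares Wilson intervals, and ratios of 5p to 3p reads normal intervals on the log scale. No test was run between conditions, since each has 1 library. The scripts were tested on simulated data. Folds are from RNAfold (version 2.7.2), places from GENCODE (version 44) and RefSeq. Alternatives were scaling by all miRNA reads, miR-16-5p, edgeR's TMM (version 4.0.16) or DESeq2's median of ratios (version 1.42.0), only reads with the annotated start, isoforms with 1 read left out, and minimums of 50 and 200 reads. The arm ratio of other hairpins, its minimum of 200 reads and hsa-miR-145-3p reads with the start 2 nt downstream were added after seeing the data. Named miRNAs are the 4 members, miRNAs with a member's seed, the 3 most like hsa-miR-145-5p and hsa-miR-143-3p in pattern, miR-16-5p and the leading miRNA of each marker list. Marker miRNAs with no reads listed are named as well, and miRNAs or hairpins past a member in a ranking, where 5 or fewer were, are named after their values were seen. So are the lowest of the intestinal epithelial list and the hairpins given as mirrored or with a log2 ratio of 0. The members and lists were chosen with earlier results of these data known.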

Additional observations from a re-analysis of the deposited data

How the results depend on the processing

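No paired analysis was possible because each condition has 1 library, and for the same reason no replicate was left out. Of 114 alternative ratios of the members between libraries, 72 stayed within the main interval, 33 moved beyond it on the same side of 1 and 9 moved beyond it to the other side. Of the 72, 3 also changed side, all for hsa-miR-145-3p in mutant 2 against mutant 1, at 0.859 with miR-16-5p, 0.957 with TMM and 0.934 with the median of ratios, where the main interval holds 1. The cause of these shifts was not tested, beyond the scaling or reads that each alternative itself changes. Leaving out isoforms with 1 read moved none of the ratios of an arm between libraries beyond its interval. The same held for the start and end shares it was run on, 1 start and 1 end per arm. That setting was not run on the other start and end shares or on the arm share.

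Values against the empty vector are given in the order wild-type, mutant 1, mutant 2. With division by miR-16-5p reads, hsa-miR-145-5p was at 0.969, 1.79 and 0.951, hsa-miR-143-3p at 0.397, 0.264 and 0.292, and hsa-miR-145-3p at 0.408, 0.302 and 0.259. For mutant 2 against wild-type this gave 0.982, 0.735 and 0.635 for the 3 arms, and for mutant 2 against mutant 1 it gave 0.532 for hsa-miR-145-5p and 1.10 for hsa-miR-143-3p. With all miRNA reads, wild-type and mutant 1 against the empty vector were at 1.52 and 2.85 for hsa-miR-145-5p, 0.623 and 0.421 for hsa-miR-143-3p, and 0.641 and 0.481 for hsa-miR-145-3p. Mutant 2 against wild-type was then at 1.47, 1.10 and 0.951, and mutant 2 against mutant 1 at 0.787, 1.63 and 1.27, for the same arms. With TMM, hsa-miR-145-5p was at 2.03 for mutant 1 against wild-type and 0.593 for mutant 2 against mutant 1, and hsa-miR-143-3p at 0.761 for wild-type against empty vector and 0.734 for mutant 1 against wild-type. With the median of ratios, these were 2.11, 0.579, 0.756 and 0.762, beside 1.85 for hsa-miR-145-5p in wild-type against empty vector and 1.20 for hsa-miR-143-3p in mutant 2 against mutant 1.

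With only reads at the annotated start, hsa-miR-145-3p was left with 1 to 16 reads and its ratios to the empty vector became 3.28, 10.5 and 14.1, those of mutant 1 and mutant 2 to wild-type 3.20 and 4.31, and that of mutant 2 to mutant 1 1.35. The 5p share of MIR145 then became 99.9%, 99.9%, 99.8% and 99.5% in the empty vector, wild-type, mutant 1 and mutant 2 libraries, so the arm balance rests on the reads of hsa-miR-145-3p that start 2 nt downstream.

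The count of untransfected miRNAs past 2-fold, from 62, 89, 56, 72, 54 and 53 in the order used in the report, became 9, 18, 7, 7, 3 and 6 with a mean of at least 50 reads, 1, 6, 3, 1, 0 and 0 with at least 200, and 228, 263, 240, 245, 230 and 216 with 1 read in each library. It became 343, 467 and 570 against the empty vector with miR-16-5p, and with all miRNA reads 147 for mutant 1 against empty vector and 104 for mutant 2 against mutant 1. Of the 62, 89, 72 and 53 for wild-type and mutant 1 against empty vector, mutant 1 against wild-type and mutant 2 against mutant 1, 40, 41, 17 and 32 were higher, whereas with the median of ratios 28 of 58, 54 of 93, 33 of 66 and 21 of 48 were, and with TMM 28 of 58, 43 of 89, 28 of 67 and 21 of 46. With miR-16-5p, 0 of 343, 5 of 467 and 1 of 570 were higher, and with all miRNA reads 13 of 61, 15 of 147 and 32 of 55 against the empty vector. For mutant 2 against wild-type, 24 of 54 were higher, against 47 of 60 with all miRNA reads and 10 of 63 with miR-16-5p, and for mutant 2 against mutant 1, 95 of 104 and 13 of 48 with the same scalings. Hairpins with the arm ratio past 2-fold numbered 5, 12 and 3 of 79 with a mean of at least 200 reads on each arm, from 9, 21 and 8 of 124.

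Depth limits hsa-miR-145-3p most, with 249 to 380 reads a library, and its annotated-start reads above all.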
